A study of Homo sapiens with 90 samples.

Results

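The genes described here are DIO1, THRSP, THRB, TTR and SERPINA7, through which liver cells activate, carry and answer thyroid hormone. They are 5 of the 19774 genes that a probe set of the array names alone, and all 9 probe sets (of 54715) that carry one of the 5 symbols and no other were taken. DIO1, TTR and SERPINA7 had 1 probe set each, and THRSP and THRB had 3 each. The cells were HepaRG, a human hepatoma line kept in a medium that gives hepatocyte-like cultures. For 24 h they received either of a pair of azole fungicides, the triazole fenbuconazole and the imidazole imazalil, or the herbicide 2,4-D, which is 2,4-dichlorophenoxyacetic acid. The 9 concentrations of every chemical ran from 0.001 to 10 µM, with 3 replicates of each, which the labels code P1, P2 and P3, read here as culture batches. The controls received the DMSO vehicle alone, and all 3 chemicals shared the same 3 DMSO arrays. Expression was measured on Affymetrix HT HG-U133+ PM arrays, and values are log2 after RMA normalisation, which was run separately for the arrays of each chemical. The 5 genes were chosen from these log2 values, by their differences from DMSO across concentrations, so their levels and differences are given as a description and without a test.

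Thyroid hormone leaves the thyroid gland mainly as the prohormone thyroxine. In the liver, the selenoenzyme DIO1 removes iodine from thyroxine and its products, which yields the active hormone and also clears inactive forms. TTR and SERPINA7 (thyroxine-binding globulin) are made by hepatocytes and carry the hormone in blood, THRB is the main nuclear receptor for the hormone in hepatocytes, and THRSP (Spot 14) is a lipogenic gene that the hormone and carbohydrate feeding induce in liver.

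DIO1 lies on chromosome 1, THRSP on 11, THRB on 3, TTR on 18 and SERPINA7 on X. The 250 bases before the RefSeq start of DIO1, THRSP and SERPINA7 (assembly GRCh38.p14) are shown because these are the 3 genes whose values moved away from DMSO at 10 µM. They are written 5′ to 3′ on the strand of the gene, chr1:53893937-53894186 on the plus strand, chr11:78063611-78063860 on the plus strand and chrX:106038728-106038977 on the minus strand. Capitals mark AGGTCA or its reverse complement TGACCT, the half-site that thyroid hormone receptors share with other nuclear receptors.
DIO1: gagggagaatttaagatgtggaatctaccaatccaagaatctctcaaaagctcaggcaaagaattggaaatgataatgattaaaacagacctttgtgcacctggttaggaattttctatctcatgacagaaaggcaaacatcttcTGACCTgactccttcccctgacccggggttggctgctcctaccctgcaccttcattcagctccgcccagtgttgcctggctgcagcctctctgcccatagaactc
THRSP: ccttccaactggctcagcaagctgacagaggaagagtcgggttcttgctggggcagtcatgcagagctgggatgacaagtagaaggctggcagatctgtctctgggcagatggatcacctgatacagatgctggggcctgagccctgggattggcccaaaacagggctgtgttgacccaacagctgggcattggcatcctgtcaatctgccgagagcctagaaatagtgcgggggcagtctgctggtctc
SERPINA7: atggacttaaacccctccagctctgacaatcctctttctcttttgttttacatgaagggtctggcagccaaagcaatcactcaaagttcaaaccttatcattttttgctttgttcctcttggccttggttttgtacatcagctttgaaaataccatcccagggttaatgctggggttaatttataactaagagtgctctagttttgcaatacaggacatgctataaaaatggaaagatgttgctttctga
DIO1 held 1 such half-site, TGACCT, from 105 to 100 bases before the start, and the windows of THRSP and SERPINA7 held 0. Of 35116 windows of this length, 12.1% held the half-site on either strand. A direct repeat of 2 copies of AGGTCA in the same orientation with 4 bases between them, which overlaps the half-site search, and a sterol response element written as TCACNCCAC were searched on both strands too, and neither was found in the windows of DIO1, THRSP, SERPINA7 or THRB. They were held by 0.0142% and 0.883% of all windows. RefSeq's table listed 4 of the 5 genes. A match or its absence in this window is a description of its letters only.

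The 5 genes spanned much of the range of the array. Averaged over the 90 columns, TTR stood at 12.51 on the log2 scale, above 99.9% of probe sets, and SERPINA7 at 10.58, above 98.9%. DIO1 averaged 7.00, above 87.1% of probe sets. For THRSP the means were 6.95 (229476_PM_s_at), 6.64 (229477_PM_at) and 5.68 (1553583_PM_a_at), and for THRB they were 7.41 (228716_PM_at), 5.77 (229657_PM_at) and 3.78 (207044_PM_at). These levels are intensities of different probe sets and give no order of transcript abundance between genes.

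DIO1 was higher at 10 µM of both azoles than in any other array of their sets. The DMSO arrays of the fenbuconazole set read 6.92, 6.80 and 6.83 for P1, P2 and P3. At 10 µM fenbuconazole they read 8.10, 7.83 and 7.76. All 3 treated arrays lay above all 3 DMSO arrays and above the highest of the 27 other arrays of the set, 7.17. The difference from DMSO was 1.05 on the log2 scale (SE 0.14, 95% interval 0.77 to 1.32, n = 3), a 2.06-fold level. In bulk samples, a different number of cells of a type and a different amount of RNA per cell cannot be told apart.

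At 10 µM imazalil DIO1 read 8.25, 7.87 and 8.11, against 6.93, 6.79 and 6.90 in DMSO. The highest of the 27 other arrays of that set read 7.32, so the 10 µM arrays again stood apart. The difference was 1.20 (SE 0.14, 95% interval 0.91 to 1.49, n = 3), a 2.30-fold level. Ordered by difference from DMSO at 10 µM, DIO1 was number 47 of all probe sets with fenbuconazole and number 22 with imazalil. Within P1, P2 and P3 the difference was 1.18, 1.03 and 0.93 with fenbuconazole and 1.32, 1.08 and 1.21 with imazalil, so every culture batch showed it.

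With 2,4-D, DIO1 at 10 µM read 7.07, 7.24 and 6.93 against 6.89, 6.74 and 6.87 in DMSO. All 3 arrays lay above DMSO, but 10 of the 27 other arrays reached the lowest of them. The difference was 0.25 (SE 0.13, 95% interval -0.03 to 0.53), and without P2 it was 0.13.

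**Figure D1:**
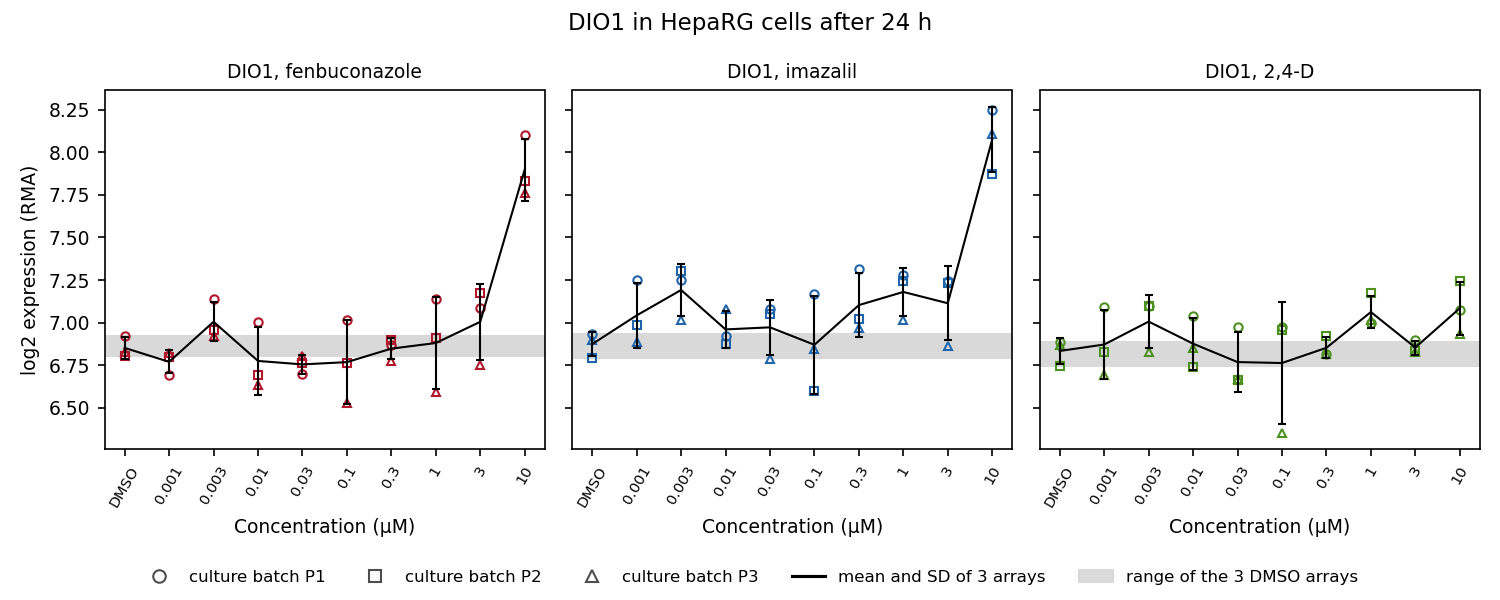
DIO1 log2 expression (vertical axis) against concentration in µM (horizontal axis, DMSO first) for the 3 chemicals. Points are single arrays by culture batch, the line and bars are the mean and SD of 3 arrays, and the grey band is the range of the DMSO arrays. With both azoles the 10 µM arrays, from 7.76 to 8.25, stand above all other arrays of their sets, and with 2,4-D they do not.

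The step in DIO1 came between the 2 highest concentrations of the azoles. From 3 to 10 µM the mean rose from 7.00 to 7.90 with fenbuconazole and from 7.11 to 8.08 with imazalil, and the arrays of the neighbouring concentrations did not overlap. From 0.001 to 3 µM the difference from DMSO ranged from -0.10 to 0.15 with fenbuconazole, from -0.00 to 0.32 with imazalil and from -0.07 to 0.23 with 2,4-D. The -0.10 with fenbuconazole was at 0.03 µM, with all 3 arrays below DMSO. With 2,4-D the 0.23 was at 1 µM, with all 3 arrays above DMSO. The mean then fell from 7.06 at 1 µM to 6.85 at 3 µM. The shares of all probe sets that did the same at these 2 concentrations are not given here. Imazalil held all 3 DIO1 arrays above DMSO also at 0.003, 0.3 and 1 µM, by 0.32, 0.23 and 0.31, where 6.67%, 5.64% and 6.15% of all probe sets did the same. Between them, at 0.01, 0.03 and 0.1 µM, DIO1 arrays overlapped DMSO, so these smaller differences did not follow concentration. Against the 9 arrays of 0.001 to 0.01 µM in place of DMSO, the imazalil difference at 10 µM was 1.01.

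THRSP was also highest at 10 µM of the azoles in 5 of 6 pairings of probe set and azole, the exception being 1553583_PM_a_at with imazalil, and the spread between batches was wide. At 10 µM fenbuconazole 229477_PM_at read 7.58, 7.06 and 7.59 in P1, P2 and P3, against 6.35, 6.66 and 6.51 in DMSO. The treated arrays lay above DMSO and above the highest of the 27 other arrays, 7.05, though the P2 array only just exceeded it. The difference was 0.90 (SE 0.13, 95% interval 0.63 to 1.17), a 1.87-fold level. The other probe sets of THRSP gave 0.67 (229476_PM_s_at, SE 0.16) and 0.64 (1553583_PM_a_at, SE 0.18), with all 3 arrays above DMSO in each. Separation from DMSO was not confined to 10 µM. All 3 arrays of 229477_PM_at lay above DMSO at 3 of the 9 fenbuconazole concentrations, among them 0.003 µM with 0.36. All 3 of 229476_PM_s_at lay below DMSO at 1 µM, with -0.23. The shares of all probe sets that did the same at these lower concentrations are not given here.

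The 3 batches differed in how far THRSP moved. By 229476_PM_s_at the difference at 10 µM fenbuconazole was 1.21 in P1, 0.16 in P2 and 0.63 in P3. The P1 batch had the lowest THRSP in DMSO and the largest difference, and P2 had the smallest difference in all 3 probe sets with both azoles. Without P1 the 1553583_PM_a_at difference with fenbuconazole was 0.24 instead of 0.64, and without P2 the 229477_PM_at difference was 1.15 instead of 0.90.

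With 10 µM imazalil the THRSP differences were 0.54 (229477_PM_at, SE 0.23), 0.43 (1553583_PM_a_at, SE 0.19) and 0.34 (229476_PM_s_at, SE 0.19). All 3 arrays lay above DMSO in the first 2 probe sets and overlapped DMSO in 229476_PM_s_at. At 0.001 µM imazalil, the lowest concentration, all 3 THRSP probe sets also lay above DMSO, by 0.43, 0.18 and 0.32 for 1553583_PM_a_at, 229476_PM_s_at and 229477_PM_at. The 1553583_PM_a_at difference at 0.001 µM was thus as large as at 10 µM. At 0.001 µM imazalil 5.12% of all probe sets lay wholly above DMSO. The largest 1553583_PM_a_at difference with imazalil was a lower level, -0.58 at 1 µM. There the P1 array read the lowest THRSP of the 30 arrays of the set in each probe set, 4.57 for 1553583_PM_a_at, 5.53 for 229477_PM_at and 6.30 for 229476_PM_s_at.

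With 10 µM 2,4-D THRSP went the other way in the 229476_PM_s_at probe set, which read 6.61, 6.47 and 6.59 against 6.81, 7.00 and 7.04 in DMSO. All 3 arrays lay below DMSO, and the difference was -0.39 (SE 0.13, 95% interval -0.66 to -0.12). The other probe sets overlapped DMSO, with -0.22 for 1553583_PM_a_at and -0.06 for 229477_PM_at, so the fall was not shared by all readings of THRSP. Without P2 the differences of the latter were 0.11 and 0.08.

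**Figure D2:**
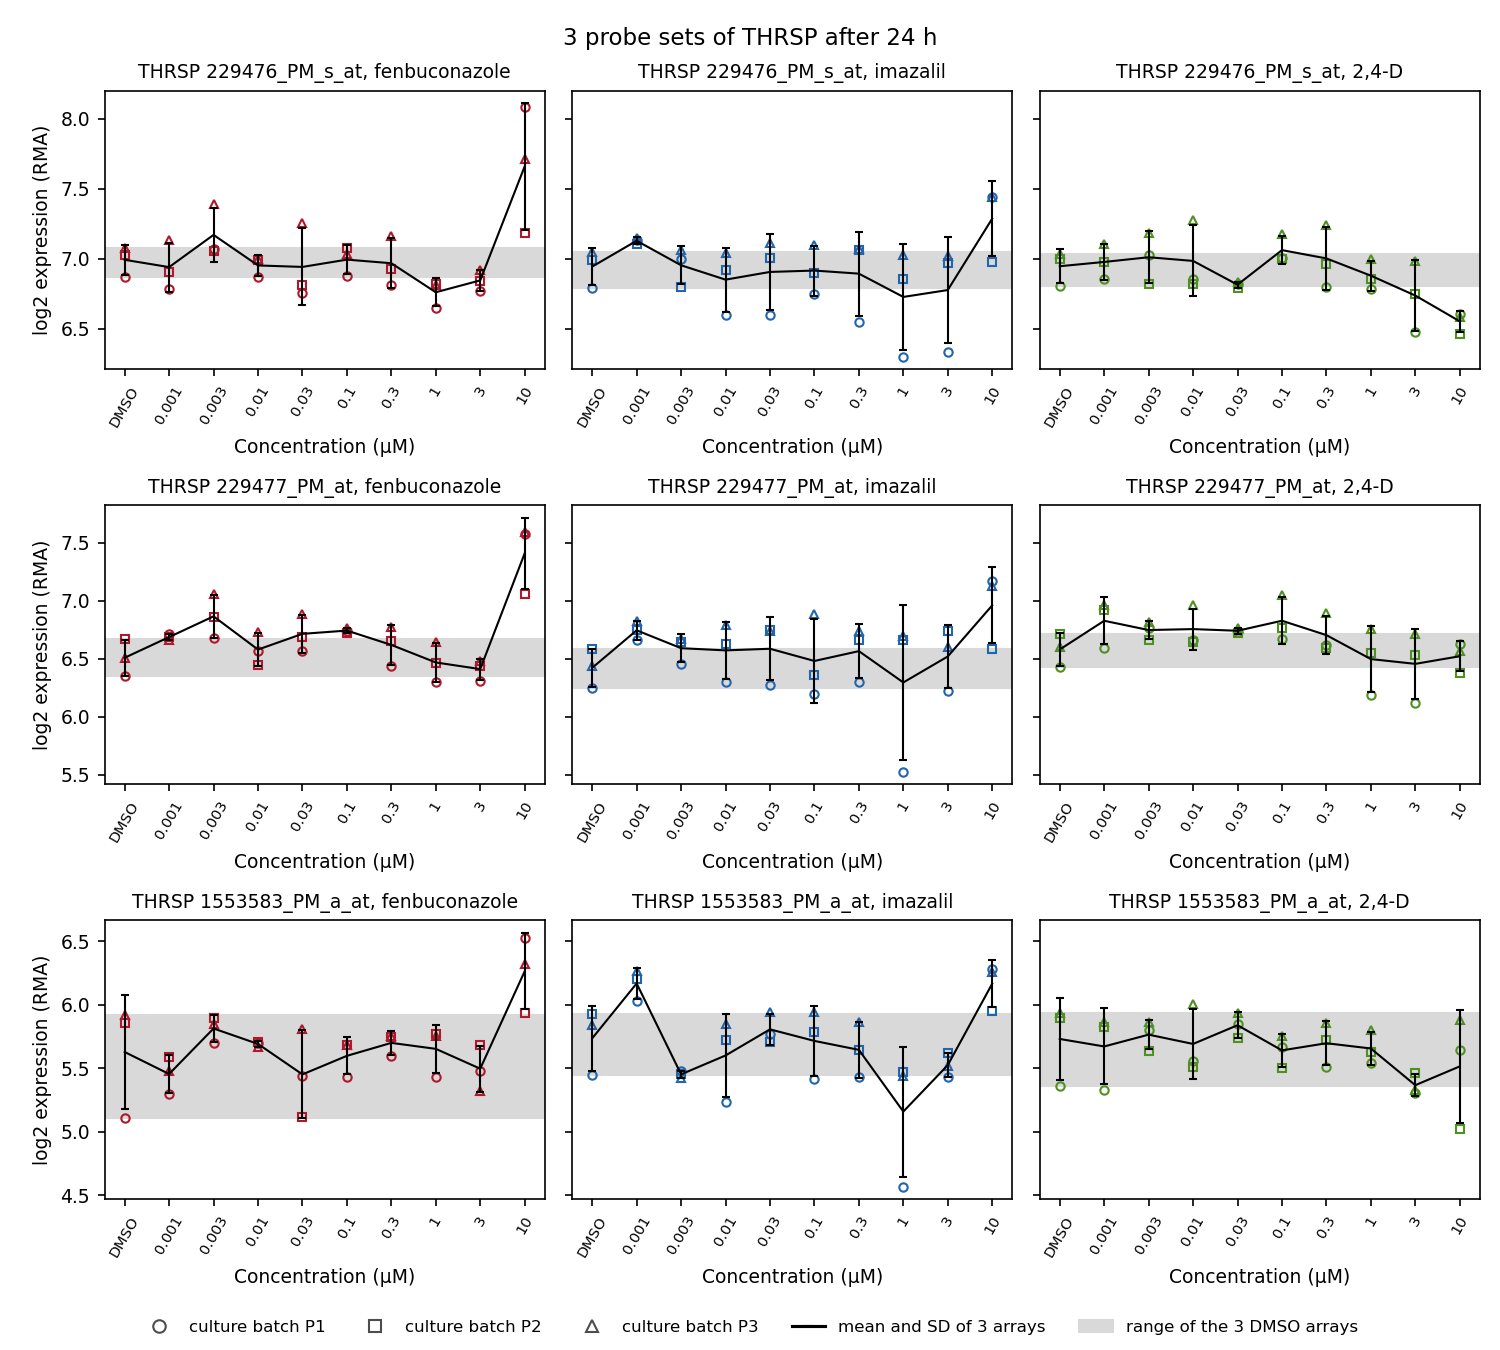
Log2 expression of the 3 THRSP probe sets (rows) against concentration in µM (DMSO first) for the 3 chemicals (columns). Points are single arrays by culture batch, lines and bars are the mean and SD of 3 arrays and grey bands are the DMSO range. In all 3 probe sets the 10 µM fenbuconazole arrays lie above DMSO and their batches spread widely, from 7.19 to 8.09 in 229476_PM_s_at.

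The THRSP probe sets varied together across the 81 treated arrays, with Pearson r from 0.76 to 0.88 between pairs, and from 0.65 to 0.82 over the 72 arrays below 10 µM. Arrays of a batch share that batch, so these correlations are a description. DIO1 and THRSP had opposite batch offsets. Averaged over the 27 treated arrays of a batch, DIO1 deviated from its group means by 0.12 in P1 and -0.12 in P3, and THRSP by -0.10 to -0.14 in P1 and 0.12 to 0.16 in P3.

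SERPINA7 moved by less than DIO1 and in the other direction, and it did so over more than 1 concentration of imazalil. At 10 µM imazalil it read 10.15, 10.21 and 10.24 in P1, P2 and P3 against 10.59, 10.58 and 10.65 in DMSO. All 3 arrays lay below all 27 other arrays of the set. The difference was -0.41 (SE 0.07, 95% interval -0.56 to -0.26, n = 3), a level 0.753 times that in DMSO.

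At 3 and 1 µM imazalil the SERPINA7 arrays were also all below DMSO, by 0.23 and 0.14 on the log2 scale, where 3.25% and 5.24% of all probe sets lay wholly below. The means fell at each step, from 10.59 at 0.3 µM to 10.46, 10.38 and 10.20 at 1, 3 and 10 µM, and neighbouring concentrations did not overlap. From 0.001 to 0.3 µM the arrays overlapped DMSO.

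With fenbuconazole, SERPINA7 at 10 µM read 10.41, 10.30 and 10.52 against 10.60, 10.60 and 10.69, all below DMSO, with a difference of -0.22 (SE 0.09, 95% interval -0.40 to -0.04). At 3 µM it was below DMSO by 0.07, with all 3 arrays below, as for 6.5% of all probe sets. With 10 µM 2,4-D it read 10.63, 10.67 and 10.64 against 10.62, 10.65 and 10.69, a difference of -0.00 (95% interval -0.16 to 0.15).

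TTR stayed near DMSO throughout. Across the 90 columns it ranged from 12.42 to 12.62, its differences from DMSO lay between -0.04 and 0.05 at all 27 conditions, and no condition had all 3 arrays on one side of DMSO. At 10 µM the differences were 0.03 with fenbuconazole (95% interval -0.12 to 0.18), 0.03 with imazalil (-0.11 to 0.17) and 0.04 with 2,4-D. The variance of its 27 mean differences ranked 54697 of 54715 probe sets, among the lowest on the array, whereas DIO1 ranked 61. A probe set near the top of the intensity range can respond less than in proportion to its transcript, and this was not tested here.

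THRB gave 3 probe sets that did not move together. Across the 81 treated arrays r between pairs was -0.30, 0.04 and 0.27. At 10 µM the brightest, 228716_PM_at, differed from DMSO by 0.10 (SE 0.12) with fenbuconazole, 0.03 (SE 0.10) with imazalil and 0.10 with 2,4-D, with overlap in each. The 229657_PM_at probe set gave 0.28, 0.20 and 0.06 and the dim 207044_PM_at gave -0.11, -0.26 and -0.03, again with overlap. Below 10 µM, in the same order of chemicals, 229657_PM_at went as high as 0.46, 0.60 and 0.41. All 3 of its arrays lay above DMSO at 2, 1 and 0 concentrations. Below 10 µM 207044_PM_at went as low as -0.29, -0.41 and -0.38, and it overlapped DMSO at every concentration.

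The mean of 228716_PM_at lay above the DMSO mean at every concentration but 0.03 µM 2,4-D. It did so by up to 0.26 with fenbuconazole, 0.32 with imazalil and 0.22 with 2,4-D. All 3 arrays lay above DMSO at only 1 concentration of each chemical. Its DMSO arrays spread from 7.11 to 7.45 in the fenbuconazole set, with P1 lowest. Against the 9 arrays of 0.001 to 0.01 µM, its 10 µM differences changed sign, to -0.05, -0.20 and -0.09 for fenbuconazole, imazalil and 2,4-D, so no direction is given for THRB.

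**Figure D3:**
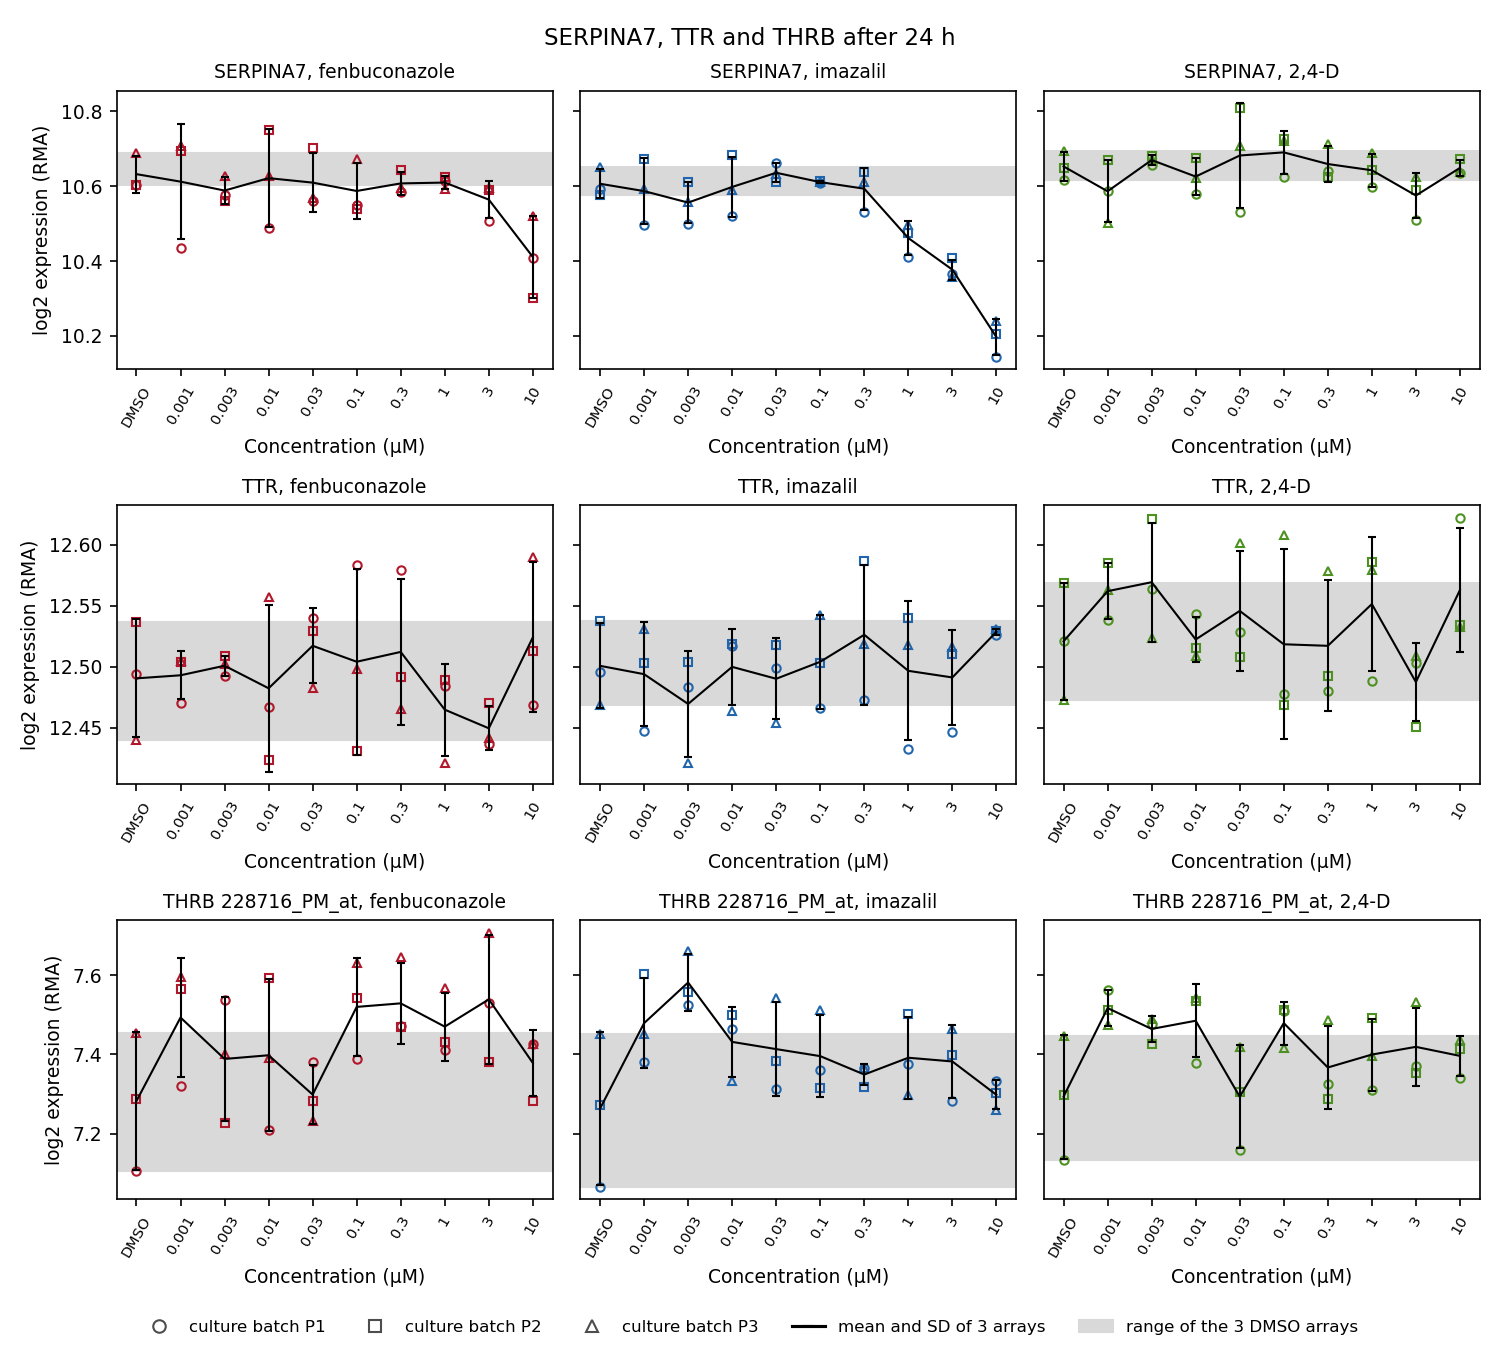
Log2 expression of SERPINA7, TTR and the brightest THRB probe set (rows) against concentration in µM (DMSO first) for the 3 chemicals (columns). Points are single arrays by culture batch, lines and bars are the mean and SD of 3 arrays, grey bands are the DMSO range, and each row has its own vertical range. SERPINA7 declines from 10.59 at 0.3 µM imazalil to 10.20 at 10 µM, and TTR stays between 12.42 and 12.62.

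All 3 arrays lay above DMSO for 4 of the 9 probe sets at 10 µM fenbuconazole (4.98% of all probe sets), 3 with imazalil (6.83%) and 1 with 2,4-D (3.76%). They lay below for 1 with each chemical, against 5.17%, 5.69% and 4.02% of all. Since the genes were chosen with these contrasts known, nothing is read from the counts.

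**Figure D4:**
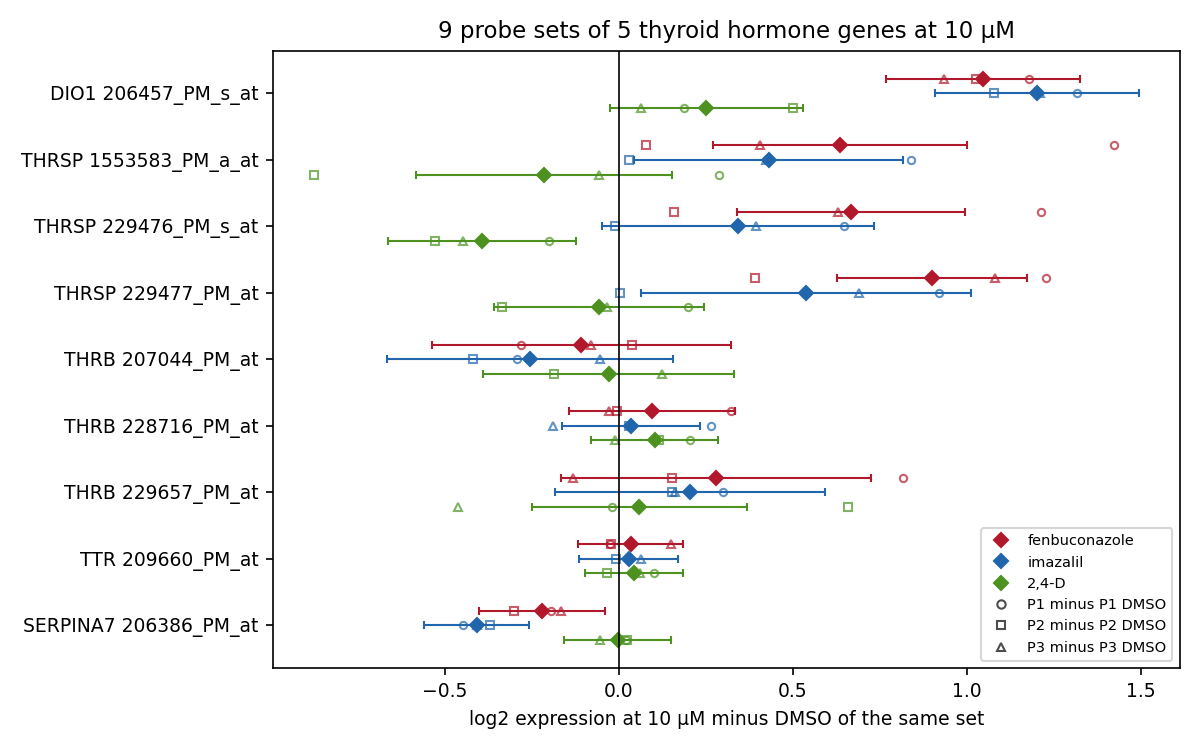
Log2 difference from DMSO at 10 µM (horizontal axis) of the 9 probe sets (vertical axis). Diamonds and bars are the mean difference of 3 arrays and its 95% interval, and open symbols are the differences within culture batches P1 to P3. DIO1 stands at 1.05 and 1.20 with the azoles, SERPINA7 at -0.22 and -0.41, and TTR near 0.

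The chemicals were set side by side at 10 µM after the DMSO mean of each set was subtracted, over the 3 pairs. The contrasts share their DMSO arrays. DIO1 differed between fenbuconazole and imazalil by -0.16 (95% interval -0.45 to 0.14), and their arrays overlapped. Both azoles lay above 2,4-D without overlap, fenbuconazole by 0.80 (0.50 to 1.09) and imazalil by 0.95 (0.66 to 1.24).

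SERPINA7 at 10 µM was higher with fenbuconazole than with imazalil by 0.19 (95% interval 0.05 to 0.33), with no overlap, and lower with both azoles than with 2,4-D, by 0.22 and 0.41. For THRSP 229476_PM_s_at fenbuconazole exceeded imazalil by 0.32 (-0.02 to 0.67) with overlap, and exceeded 2,4-D by 1.06 (0.71 to 1.41) without. The intervals of TTR between chemicals stayed within -0.12 and 0.12.

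Other genes of thyroid hormone biology were taken from 6 lists, and 77 of their 87 genes had a probe set of their own. They were tested in limma by a moderated t with Benjamini-Hochberg adjustment over 19774 genes, at an adjusted p of 0.05. With 10 µM fenbuconazole 1 list gene rose and 3 fell, or 1.3% and 3.9% of those measured, where 0.435% of all genes rose and 0.172% fell. With imazalil 3 rose and 3 fell, or 3.9% each way, where 0.516% and 0.303% of all genes did. With 2,4-D 0 rose and 0 fell, as for all genes, and 6 list genes (7.79%) had an unadjusted p below 0.05, where 5.63% of all genes did. That count was 18 (23.38%) with fenbuconazole, against 7.67% of all genes, and 15 (19.48%) with imazalil, against 9.98%. The lists were chosen with earlier results of these data known, so nothing is read from these shares. The moderated F over the 9 concentrations called 3 list genes with fenbuconazole (0.379% of all genes), 3 with imazalil (0.384%) and 0 with 2,4-D (0 of all genes). The median difference of the lists was 0.00, 0.05 and 0.03, and of all genes 0.00, 0.01 and 0.00, for fenbuconazole, imazalil and 2,4-D.

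Among the deiodinases, DIO2, which activates thyroxine in other tissues, and DIO3, which inactivates the hormone, stood near the array median of 2.87. DIO2 averaged 2.87 at 10 µM fenbuconazole against 2.86 in DMSO, and with imazalil it differed from DMSO by 0.17 (SE 0.17). DIO3 averaged 3.33 against 3.22 with fenbuconazole and 3.31 against 3.28 with imazalil. Neither passed the test with any chemical, the largest difference being 0.27 (SE 0.18) for DIO3 with 2,4-D.

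Of the sulfotransferases, which tag hormones for clearance, imazalil moved a pair in opposite directions. SULT2A1 read 10.76 to 10.89 at 10 µM against 10.12 to 10.27 in DMSO, a rise of 0.63 (SE 0.09, limma adjusted p = 0.000214). SULT1E1, the oestrogen sulfotransferase, read 5.32 to 5.55 against 6.11 to 6.28, a fall of 0.81 on the log2 scale (SE 0.15, limma adjusted p = 0.00285). Without P2 the adjusted p of SULT1E1 was 0.209 and without P3 0.0611. With fenbuconazole the differences were 0.27 for SULT2A1 and -0.46 for SULT1E1, neither past the test. By the moderated F over 9 concentrations, SULT1B1 passed with fenbuconazole (adjusted p = 0.0497), at -0.63 at 10 µM.

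DIO1 is a selenoprotein. Of the 19 other selenoproteins measured, 2 rose and 0 fell at 10 µM imazalil, where 0.516% of all genes rose and 0.303% fell. The list median was 0.02. GPX2, an epithelial glutathione peroxidase, read 8.97 to 9.09 against 7.85 to 8.09 in DMSO, a rise of 1.05 (SE 0.10, 2.08-fold, limma adjusted p = 1.33e-07). Its call held in all 10 alternative fits run for it, but the rise was 0.54 when the probe sets of the gene were averaged. TXNRD1, a thioredoxin reductase, rose by 0.34 (SE 0.08, limma adjusted p = 0.0387), and its call was lost without any one batch, with adjusted p of 0.268, 0.732 and 0.242 without P1, P2 and P3. With its probe sets averaged the difference was 0.12. With fenbuconazole 0 of the 19 passed, and GPX2 differed by 0.32. The 8 genes that insert selenocysteine, such as SECISBP2 and EEFSEC, gave 0 calls with any chemical, with differences at 10 µM of the azoles between -0.28 and 0.34.

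Among 13 measured transport and binding genes, 1 passed with each azole. SLC17A4, an anion transporter that can carry thyroid hormone, fell by 0.50 with fenbuconazole (SE 0.10, limma adjusted p = 0.0123), and without P1, P2 or P3 its adjusted p was 0.207, 0.589 and 0.107. Its differences with the other chemicals were close in size, -0.53 with imazalil (SE 0.15) and -0.44 with 2,4-D (SE 0.12), and did not pass. SLC10A1, the bile acid uptake carrier NTCP, fell by 0.39 with imazalil (SE 0.10), where the limma adjusted p of 0.04998 was just under the threshold and became 0.423, 0.741 and 0.0878 without P1, P2 and P3. It differed by -0.47 with fenbuconazole (SE 0.12), which did not pass, and with imazalil by -0.18 when set against the arrays of 0.001 to 0.01 µM in place of DMSO. Of the 11 receptors and coregulators measured, 0 passed with any chemical. THRA, the other thyroid hormone receptor gene, differed by -0.09 with fenbuconazole and -0.14 with imazalil.

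The liver target genes of the hormone did not share a direction. FASN, the fatty acid synthase, read 7.76 to 8.08 at 10 µM fenbuconazole against 7.05 to 7.36 in DMSO, a rise of 0.73 (SE 0.16, limma adjusted p = 0.0208). G6PC1, which releases glucose from the liver, fell by 0.86 with fenbuconazole (SE 0.18, limma adjusted p = 0.0144) and by 1.14 with imazalil (SE 0.20, limma adjusted p = 0.00208). ANGPTL4, a lipoprotein lipase inhibitor, fell by 0.60 with fenbuconazole (SE 0.12, limma adjusted p = 0.0104). The other 16 of 19 measured targets did not pass with fenbuconazole and 18 did not with imazalil.

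Each of these target calls was lost in at least 1 of the fits that left out 1 batch, with differences that kept their direction. FASN was past the test without P1 but not without P2 (limma adjusted p = 1.00) or P3 (0.0676). G6PC1 with fenbuconazole was lost without P1 (0.0966) or P2 (1.00), and with imazalil without P2 (0.376). ANGPTL4 was lost without any one of P1, P2 and P3 (0.207, 0.414 and 0.0691). Over these fits without 1 batch the difference from DMSO ran from 0.63 to 0.83 for FASN, from -0.54 to -0.64 for ANGPTL4, and for G6PC1 from -0.58 to -1.16 with fenbuconazole and from -0.85 to -1.38 with imazalil. FASN with fenbuconazole was 0.43 when its probe sets were averaged (limma adjusted p = 0.0633). With probe sets averaged, G6PC1 with fenbuconazole did not pass either, while ANGPTL4 with fenbuconazole (-0.67) and G6PC1 with imazalil (-0.99) did. With the culture batch as a block, 5 list genes fell at 10 µM fenbuconazole instead of 3, the additional ones being SLC10A1 and CRYM, and FASN also rose at 10 µM imazalil by 0.37 (limma adjusted p = 0.0463).

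**Figure D5:**
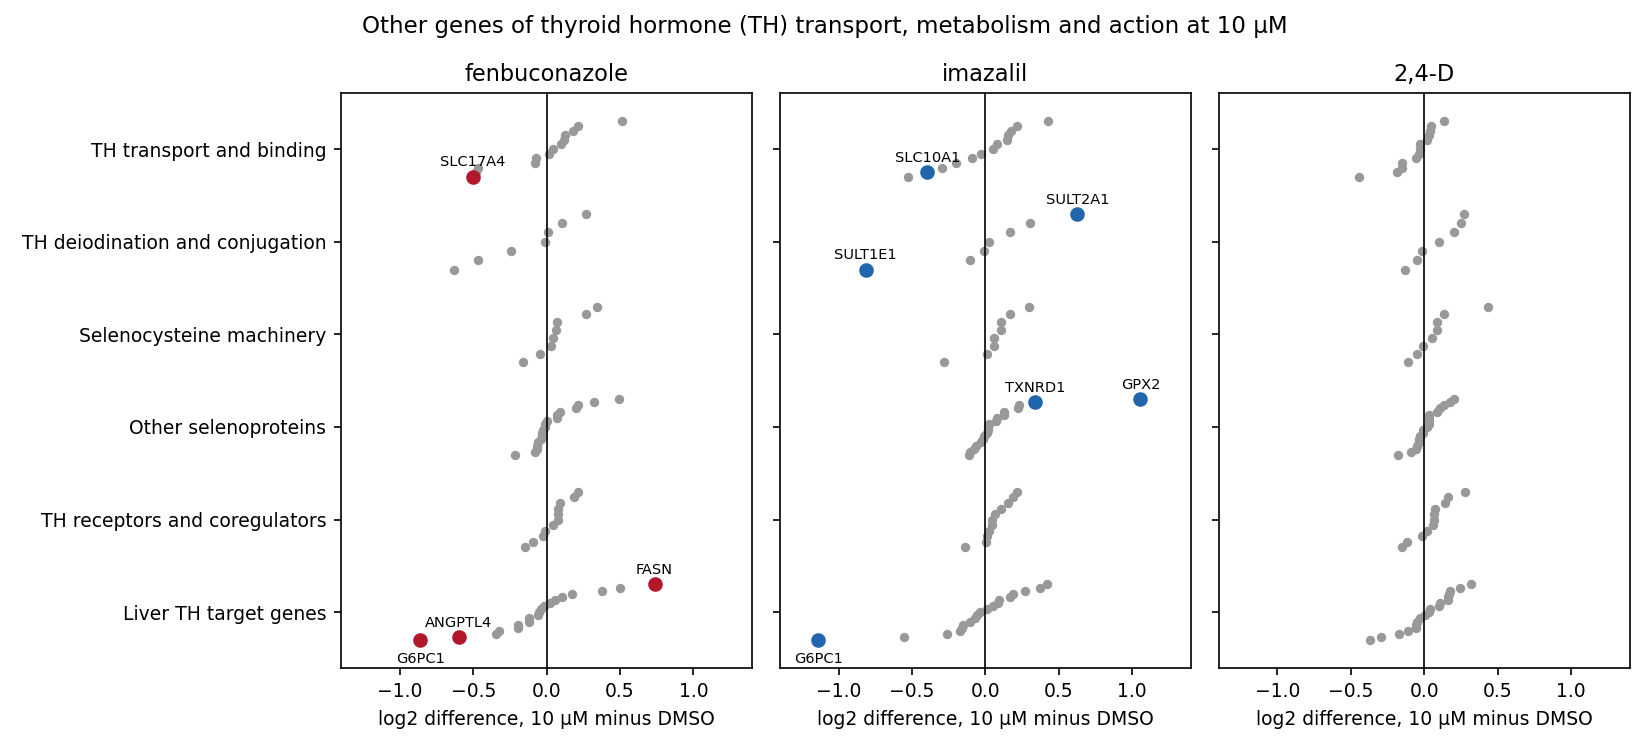
Log2 difference from DMSO at 10 µM (horizontal axis) of the 77 measured genes of 6 thyroid hormone lists (vertical axis), 1 panel per chemical. Large coloured points passed limma with Benjamini-Hochberg adjustment over all genes and are named, small grey points did not. Fenbuconazole has 4 named genes, imazalil 6 and 2,4-D 0.

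Between chemicals at 10 µM, 2 list genes differed between fenbuconazole and imazalil, where 0.516% of all genes did. GPX2 and SULT2A1 were lower with fenbuconazole, by 0.73 (SE 0.10) and 0.36 (SE 0.09, limma adjusted p = 0.0447) on the log2 scale. From 2,4-D, fenbuconazole differed in 2 (0.551% of all genes), SULT1E1 at -0.72 and FASN at 0.57. Imazalil differed from 2,4-D in 4 (0.779%), SULT1E1 at -1.07, G6PC1 at -0.77, GPX2 at 0.85 and SULT2A1 at 0.42. Without one batch these 3 counts ranged from 1 to 1, 0 to 2 and 2 to 3.

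The genes whose profile was most like that of DIO1 were named by Pearson r over the 81 treated arrays once the DMSO mean of its own set had been taken off. They were ABCB1, a drug efflux pump, at 0.88, CYP3A43 at 0.84, KLB, a co-receptor of FGF hormones, at 0.83, CYP3A7 at 0.83 and AKR1B10, an aldo-keto reductase, at 0.82. At 10 µM imazalil they differed from DMSO by 1.04, 2.21, 1.05, 2.29 and 0.56, and at 10 µM fenbuconazole by 0.69, 1.46, 1.16, 1.83 and 0.41. The CYP3A43 and CYP3A7 probe sets can share sequence with other CYP3A genes, so these names are uncertain. Below 10 µM r was lower for all 5, from 0.37 for KLB to 0.64 for ABCB1.

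The lowest r with DIO1 belonged to RTN1 (-0.87), CLEC3B (-0.85) and the imprinted RNA H19 (-0.85). SERPINA7 had r of -0.70, THRSP 0.32, THRB -0.24 and TTR 0.06. For THRSP against DIO1, r was 0.60 over the 27 condition means and -0.29 over the 72 arrays below 10 µM. With each batch of each chemical centred on its own mean, which takes out the opposite batch offsets of the pair, r was 0.55 over the 81 arrays and 0.10 over the 72 below 10 µM.

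The profiles most like THRSP (229476_PM_s_at) were those of HLMR1, a long non-coding RNA, at 0.81, APOA2, an apolipoprotein of HDL, at 0.64, FDPS, an enzyme of cholesterol synthesis, at 0.62, AQP9, a glycerol channel, at 0.62 and HSD17B7, another enzyme of cholesterol synthesis, at 0.59. The lowest were CLDN1 (-0.57), SURF4 (-0.51) and ZBED3 (-0.51). At 10 µM fenbuconazole HLMR1, FDPS and HSD17B7 differed from DMSO by 0.80, 0.90 and 0.85, and at 10 µM imazalil by 0.34, 0.31 and 0.22. At 10 µM 2,4-D HLMR1 differed by -0.57, as THRSP did by -0.39. All these values over arrays are a description, as the arrays of a batch and the DMSO mean are shared.

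Hepatocyte markers were high in these cultures. All 12 lay above 91.6% or more of probe sets in DMSO, with ALB at 13.19 to 13.29. Some markers of other cell types were high too, among them the biliary KRT19 (9.93 to 10.01) and SPP1 (7.75 to 8.18) and the mesenchymal ACTA2 (8.58 to 8.64). Further such markers stood at intermediate levels, with CD14 (immune) at 6.38 to 6.57, COL3A1 (mesenchymal) at 6.44 to 6.65, SOX9 (biliary) at 5.31 to 6.27, KDR (endothelial) at 5.23 to 5.78 and COL1A1 (mesenchymal) at 4.78 to 5.45. EPCAM (2.34 to 2.58) and CFTR (2.53 to 2.61) of biliary cells and CDH5 (2.15 to 2.38) of endothelium lay below the median probe set, at 2.87. So did TSHR (2.32 to 2.58) of thyroid follicular cells, CD68 (2.43 to 2.65) of macrophages, COL1A2, VWF and CD3E. Above it lay PECAM1 (endothelial) at 2.89 to 3.37, TG (thyroid follicular) at 3.04 to 3.09 and PDGFRB (mesenchymal) at 3.81 to 3.93. The ranges of KRT7, VIM, PTPRC and SLC5A5 spanned it.

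Some markers passed the limma test at 10 µM, the only concentration at which single markers were tested. At 10 µM fenbuconazole 1 of 12 hepatocyte markers fell (AHSG, by 0.83) and 1 of 6 biliary markers rose (SPP1, by 0.53). At 10 µM imazalil AHSG and CYP8B1 fell by 1.26 and 0.67, SPP1 rose by 0.86, 1 of 6 mesenchymal markers fell (COL3A1, by 0.82) and 1 of 4 immune markers rose (CD14, by 0.88). The limma test gave 0 calls among endothelial and thyroid markers with either azole, and 0 of all markers with 2,4-D. Over all genes, 0.172% fell and 0.435% rose with fenbuconazole, 0.303% fell and 0.516% rose with imazalil, and 0 passed with 2,4-D.

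The summed hepatocyte level was 15.71 to 15.90 at 10 µM fenbuconazole against 15.83 to 15.90 in DMSO, and 15.66 to 15.84 against 15.82 to 15.88 with imazalil. The summed biliary level was 10.57 to 10.64 against 10.36 to 10.43 with fenbuconazole and 10.40 to 10.54 against 10.33 to 10.41 with imazalil. The summed mesenchymal level was 8.93 to 9.04 against 9.10 to 9.12 with fenbuconazole, and with imazalil its highest array at 10 µM, 9.03, lay just under the lowest in DMSO. The summed immune level with imazalil was 7.27 to 7.50 against 6.56 to 6.77. The biliary levels with fenbuconazole, the mesenchymal levels with both azoles and the immune levels with imazalil did not overlap DMSO, and the sums of hepatocyte markers with either azole, biliary markers with imazalil and immune markers with fenbuconazole did. The brightest genes dominate a sum, and the mean of the single markers' log2 differences from DMSO gave another picture. That mean was -0.35 to -0.11 for hepatocyte markers at 10 µM imazalil, against -0.02 to 0.04 in DMSO, and 0.21 to 0.24 for biliary markers, against -0.05 to 0.07. At 10 µM fenbuconazole it was -0.32 to 0.01 for hepatocyte markers, which overlapped -0.03 to 0.05 in DMSO. For biliary markers it was 0.10 to 0.27, above -0.06 to 0.08, and for mesenchymal markers -0.17 to -0.04, below -0.02 to 0.02. At 10 µM imazalil the mean overlapped DMSO for immune markers (0.03 to 0.27 against -0.04 to 0.04) and mesenchymal markers (-0.23 to 0.01 against -0.04 to 0.07), unlike their sums. Some lower concentrations did not overlap DMSO either. At 3 µM imazalil the summed immune level was 6.78 to 6.98 against 6.56 to 6.77. The hepatocyte mean there was -0.10 to -0.03 against -0.02 to 0.04, and at 0.003 µM fenbuconazole 0.09 to 0.15 against -0.03 to 0.05. The biliary mean at 0.001 µM fenbuconazole was 0.09 to 0.15 against -0.06 to 0.08. The part of these markers in the values of DIO1, THRSP and SERPINA7 was not tested.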

How the data were processed

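The 90 columns hold log2 values deposited by the authors, who ran RMA once per chemical, each time with the shared DMSO arrays, so the 9 DMSO columns are 3 physical arrays. RMA and Partek are named in the submitters' processing notes, without a version in the sources used here. Arrays have no counting depth, so their number limits the precision. Array medians lay between 2.81 and 2.97.

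For every chemical, limma 3.58.1 (eBayes, R 4.3.3) fitted 1 mean per group over 30 arrays. Each concentration was compared with DMSO by a two-sided moderated t with Benjamini-Hochberg adjustment at 0.05 over 19774 genes, a gene being its single-symbol probe set of highest mean. For the 9 probe sets described, the fit over all 54715 gave differences, standard errors and intervals only. For comparisons between chemicals, each set's DMSO mean was first taken off its 27 treated arrays. The fit was also run on simulated arrays with independent noise and no batches, which does not cover the correlation of arrays within a batch. Figures used matplotlib 3.10.9 in Python 3.11.15.

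The genes and the lists were chosen with earlier results of these data known. Named are all 9 probe sets, up to 4 list genes past the threshold per list and chemical, DIO2, DIO3 and THRA, the 5 highest and 3 lowest correlations with DIO1 and with THRSP, and marker genes that passed. SULT1B1, which passed by the moderated F alone, was named after its values were seen.

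The study's supplement says that replicate experiments used separate cultures, and the labels' P code was read as the culture batch. As a check of the pairing, deviations from the group means had a mean r between arrays of 1 P code of 0.0979 (fenbuconazole), 0.0940 (imazalil) and 0.117 (2,4-D), against -0.0489, -0.0468 and -0.0582 between different codes. For 2,4-D the replicate numbers in the titles differ from the P codes at 6 of the 9 concentrations, and by title number r was 0.000718. The labels give one sample code to both P2 arrays of 0.001 and 0.003 µM 2,4-D, so a slip there remains possible.

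Alternatives were a block for the P code, leaving out each batch, the 9 arrays of 0.001 to 0.01 µM as reference, only the 2 groups compared, a further quantile normalization, the mean of a gene's probe sets, a filter on dim probe sets, another spread estimate and a linear trend.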

Additional observations from a re-analysis of the deposited data

How the results depend on the processing

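With the azoles, DIO1, THRSP and SERPINA7 at 10 µM kept their direction in every alternative run, and so did each of the list genes named as passing. With 2,4-D the sign of SERPINA7 and of 2 THRSP probe sets turned in at least 1 alternative, as did that of TTR with fenbuconazole and of THRB, except its 229657_PM_at probe set with fenbuconazole. Over the alternatives DIO1 differed from DMSO by 0.98 to 1.10 with fenbuconazole and 1.01 to 1.26 with imazalil, the lowest of which was against the reference of low concentrations. Leaving out 1 batch gave 0.13 to 0.34 for DIO1 with 2,4-D, 0.39 to 0.92 for THRSP 229476_PM_s_at with fenbuconazole and 0.19 to 0.52 with imazalil. THRSP with 2,4-D was -0.22 when its probe sets were averaged.

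Counts of list genes were less stable. With the P code as a replicate block, 5 fell with fenbuconazole (3 without it), and the moderated F called 5 with fenbuconazole and 5 with imazalil (3 and 3 without it). The block changed no other count by over 1.5 times. Leaving out 1 batch gave 0 to 1 higher and 0 to 2 lower with fenbuconazole, 0 to 2 lower with imazalil, and by the F 0 to 0 with fenbuconazole and 1 to 1 with imazalil. Between chemicals it gave 1 to 1 for the azoles, 0 to 2 for fenbuconazole and 2,4-D, and 2 to 3 for imazalil and 2,4-D. Against the 9 arrays of 0.001 to 0.01 µM, 5 rose and 5 fell with fenbuconazole and 1 fell with 2,4-D (SLC17A4). With only the 2 groups in the fit, 0 rose and 0 fell with fenbuconazole, and 1 rose and 1 fell with imazalil. With the mean of a gene's probe sets 0 rose with fenbuconazole. With the filter on dim genes 2 rose and with the intensity trend and robust estimation 2 rose. Quantile normalization of the 90 columns left 1 gene between the azoles and 1 between fenbuconazole and 2,4-D. The cause of these shifts was not tested. The fits that leave out arrays also hold fewer arrays, and the part of this was not tested either. The linear trend kept the F counts within 1.5 times.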
